A study of Mus musculus with 44 samples.

Results

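Mitotic cells were picked out of a mouse medulloblastoma library by the RNA of 8 genes of cell division. The library, labelled fGTS2, was made from a GTS medulloblastoma tumor with 10x Chromium 3' chemistry and holds 4498 cells. A cell was counted as mitotic when it had at least 1 UMI (a tag on 1 captured molecule) in at least 5 of the 8 genes Plk1, Aurka, Cenpe, Hmmr, Cenpf, Cdc20, Ccnb1 and Nusap1. This rule selected 1724 of 4498 cells, or 38.3% (95% exact binomial interval 36.9 to 39.8%, counting error only), and left 2774 other cells to set them against. The series, a study of recurrence of medulloblastoma, holds 9143 single cells, the rest of them in a second library labelled GTML_SOX9-GFP. It also holds bulk RNA of samples named GTML3 and preGTS1 under DOX or DMSO, with 3 samples in each of the 4 groups, and ATAC-seq of GTML_3 and PreGTS1 under DOX or DMSO and of GTS_1 and GTS_2, all in duplicate. Neither single-cell sample carries a treatment, and the labels give no age and do not spell out what GTS stands for. GTML is known as a mouse model in which the Glt1 (Slc1a2) promoter drives a tetracycline-controlled activator of a MYCN transgene, which doxycycline (DOX) switches off; DMSO is the solvent control.

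As background, a cell enters mitosis when cyclin B and CDK1 become active, builds a spindle of microtubules, attaches each chromosome to it through a kinetochore, and then destroys cyclin B through the anaphase-promoting complex to divide. RNAs of the genes that run these steps start to build up in late S phase and peak in G2 and M. Their promoters are known to share a CHR element (TTTGAA) and CCAAT boxes. They are bound by the MuvB complex, which represses them in resting cells as DREAM and activates them in G2 together with B-MYB and FOXM1. A rule on these RNAs therefore takes in G2 cells, and can take in cells late in S phase, as well as cells in mitosis proper. How many of the selected cells were in each phase was not tested. "Mitotic" is used below for the cells that the rule selected.

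Because the cells were selected on the 8 genes within 1 library, every comparison of mitotic with other fGTS2 cells is a description and carries no test. Levels are given as CPM, the UMIs of a gene per 1000000 UMIs summed over a group, 49691897 UMIs in mitotic cells and 53580484 UMIs in other cells. Intervals are exact and cover counting error only. The mitotic cells were deeper, with a median of 27666.5 UMIs and 4866.5 genes per cell, against 18594 UMIs and 3840 genes in other cells. Mitochondrial genes gave a median of 6.72% of the UMIs of mitotic cells and 7.66% of those of other cells, and ribosomal protein genes 28.8% and 31.9%. Scrublet called 16 cells doublets, 12 mitotic and 4 other. That is 0.356% of the cells, too few for the caller to be relied on, and no cell was removed. The 2 single-cell libraries shared 6 cell barcodes, 1 of them in a mitotic fGTS2 cell.

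The tissue label could be checked in part. Atoh1, Barhl1, Zic1, Gli1, Dcx and Stmn2, genes of cerebellar granule neuron progenitors and of young neurons, have no row in the fGTS2 table used here. Of the progenitor list 15 of 21 genes have a row, and of the neuronal list 18 of 22. The progenitor genes with a row summed to 658 CPM in mitotic and 622 CPM in other cells. Those of the neuronal list summed to 192 CPM in mitotic and 196 CPM in other cells. Genes of the chemosensory tuft cell were detected in both groups. These were named after their values were seen. Pou2f3, the tuft cell transcription factor, had 46.6 CPM in mitotic and 45.1 CPM in other cells, and Trpm5, a taste-signalling channel, 90.3 CPM in mitotic and 95.9 CPM in other cells. Gnb3, a G protein subunit of photoreceptors and tuft cells, had 924 CPM in mitotic and 935 CPM in other cells. Avil and Gnat3, an actin-binding protein and a taste G protein, had log2 ratios of mitotic to other cells of -0.26 and -0.24. Chat, which makes acetylcholine, had 30.8 CPM in mitotic and 52.4 CPM in other cells. Markers of other cell types were detected to unequal extents. Of 10 microglia and macrophage markers 4 have a row, with a sum of 3.10 CPM in mitotic cells and 4.40 CPM in other cells. The T and NK, ependymal and erythroid lists each summed to less than 1 CPM in either group, and the mural list to 4.85 CPM in mitotic and 4.98 CPM in other cells. The endothelial sum, 24.0 CPM in mitotic and 25.1 CPM in other cells, was nearly all Tek. Of these lists of other cell types the oligodendrocyte list was the largest, with a sum of 75.8 CPM in mitotic and 66.5 CPM in other cells. Olig1 made up 22.0 CPM of it in mitotic and 12.3 CPM in other cells. The part of such cells in the results was not tested.

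The 8 genes that made up the rule cover the main steps of division. Plk1, the polo-like kinase of mitotic entry and spindle assembly, had 85.2 CPM (82.6 to 87.8) in mitotic cells and 2.65 CPM (2.23 to 3.12) in other cells. Aurka, the kinase that matures centrosomes, had 90.1 CPM in mitotic and 4.61 CPM in other cells, and Ccnb1, the cyclin B1 partner of CDK1, 199 CPM in mitotic and 19.4 CPM in other cells. Cdc20, which turns on the anaphase-promoting complex, had 195 CPM in mitotic cells and 14.7 CPM in other cells. The kinetochore motor Cenpe had 119 CPM in mitotic and 8.23 CPM in other cells, and Cenpf, a large protein of the outer kinetochore, 481 CPM in mitotic and 52.9 CPM in other cells. The spindle proteins Hmmr and Nusap1 stood at 197 and 149 CPM in mitotic cells, against 11.6 and 4.24 CPM in other cells. The smallest log2 ratio of mitotic to other cells among the 8 was 3.18 for Cenpf and the largest 5.13 for Nusap1, values that the selection itself sets.

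The 8 genes were often seen in the same cells. The groups below are made from the counts that the rule used and differ in depth, so their shares are a description. In 1657 cells that showed 5 or more of the other 7 genes, 75.6% (73.4 to 77.6%) also had a Plk1 UMI, at a median depth of 28072 UMIs. In 993 cells with none of the other 7, 1.81% (1.08 to 2.85%) had one, at a median depth of 17546 UMIs. The same 2 shares were 94.5% and 3.37% for Hmmr, 94.5% and 12.2% for Ccnb1, and 98.9% and 26.0% for Cenpf. Cenpf was thus the gene seen most often on its own, and its share in cells with none of the other 7 was the highest of the 8.

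Cells spread unevenly between none and all of the genes. In fGTS2, 975 cells showed none, 882 showed all 8, and the fewest, 251, showed exactly 5. Just inside the rule, the 251 cells with 5 genes had a median of 20542 UMIs and 623 CPM for the 8 genes together. Just outside it, the 254 cells with 4 genes had a median of 19784 UMIs and 453 CPM. Depth moved with the number of genes seen, to a median of 31133 UMIs in cells with all 8. When each cell was thinned to 8000 UMIs, which left out 37 mitotic and 200 other cells, 1041 of 4261 cells met the rule, or 24.4% (23.1 to 25.8%). With the thinned cells grouped by the rule at full depth, 43.8% of the mitotic and 1.59% of the other cells had a Plk1 UMI. For Cenpf these shares were 90.5% and 26.0%.

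**Figure D1:**
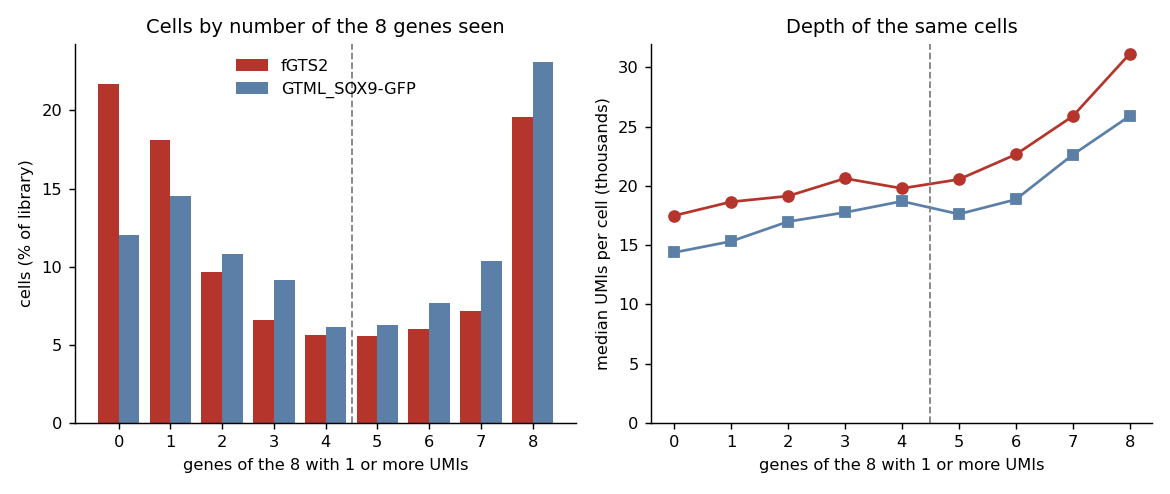
Left, the share of cells (% of the library) that showed 0 to 8 of the 8 genes in fGTS2 and in GTML_SOX9-GFP; right, the median UMIs per cell of the same cells. The dashed line marks the rule: cells to its right, 38.3% of fGTS2 and 47.4% of GTML_SOX9-GFP cells, showed 5 or more, and cells with all 8 genes were the deepest.

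The promoters of the 8 genes are shown because the letters known from G2/M promoters can be read in them. In RefSeq's 300-base windows on GRCm38.p6, from 250 bases before to 50 after the start, 5 of the 8 genes held TTTGAA or its reverse complement TTCAAA, against 18.1% of the windows of 27025 genes. Only that of Cdc20 lay before the start. In the other 4 it began 2 to 32 bases past the start, so that in the 250 bases before the start the count was 1 of 8, against 16.3% of all. CCAAT or ATTGG was in the 250 bases before the start of 7 of the 8 (none in Nusap1), against 34.5% of all genes. CACGTG, the E-box bound by MYC with MAX, was in none of the 8, against 6.05% of all. Both strands were searched, and a match is no proof of a binding site. The TTTGAA letters, in capitals, are given with 12 bases on either side, 5' to 3' on the strand of the gene.
Plk1, chr7:122159453-122159482, plus strand: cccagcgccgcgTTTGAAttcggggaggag
Aurka, chr2:172370521-172370550, minus strand: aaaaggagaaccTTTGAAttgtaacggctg
Hmmr, chr11:40733412-40733441, minus strand: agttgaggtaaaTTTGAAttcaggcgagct
Cenpf, chr1:189688067-189688096, minus strand: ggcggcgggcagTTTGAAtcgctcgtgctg
Cdc20, chr4:118437344-118437373, minus strand: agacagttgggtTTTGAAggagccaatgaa

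The 120 bases before the start are given for Cdc20, which holds both kinds of letters, and for Ccnb1, in whose window no TTTGAA was found. Capitals mark TTTGAA and CCAAT.
Cdc20, chr4:118437344-118437463, minus strand: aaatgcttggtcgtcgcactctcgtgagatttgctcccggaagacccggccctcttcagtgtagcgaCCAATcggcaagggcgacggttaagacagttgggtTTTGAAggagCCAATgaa
Ccnb1, chr13:100786487-100786606, minus strand: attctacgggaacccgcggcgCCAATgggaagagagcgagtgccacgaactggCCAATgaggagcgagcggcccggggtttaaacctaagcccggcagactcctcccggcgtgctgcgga

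In these windows Cdc20 carried a CCAAT on each side of its TTTGAA, and Ccnb1 carried 2 CCAAT in the same direction.

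Among the 5312 genes at 20 CPM or more in either group, 254 genes, or 4.78%, were at least 2-fold higher in mitotic cells and 19 genes, or 0.358%, at least 2-fold lower. The median log2 ratio over the 5312 was 0.06. Both percentages come from the contrast that the rule made and are given only as its size. A gene could pass the 20 CPM filter through 1 group alone, as Pimreg, Ccnf and Nuf2 did through the mitotic cells. The filter thus favours large ratios, and the counts and medians of the lists below are partly set by it. Of the 89 genes of G2/M lists outside the rule that reached 20 CPM (of 108 listed), 81 were higher and none lower, and their median log2 ratio was 2.53. Of the 15 largest ratios outside the rule, all but that of Mxd3 belonged to genes of these lists. Pimreg led with a log2 ratio of 4.31 (3.92 to 4.73), at 20.7 CPM in mitotic and 1.05 CPM in other cells.

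All 21 genes of the list of motors and spindle proteins that reached 20 CPM were higher, with a median log2 ratio of 2.80. Kif2c, which takes microtubule ends apart, had 36.0 CPM in mitotic and 2.16 CPM in other cells, a log2 ratio of 4.06. Ckap2l, a spindle-pole protein, had 68.7 CPM in mitotic and 4.29 CPM in other cells. Tpx2, the activator of Aurka on the spindle, had 180 CPM in mitotic and 13.8 CPM in other cells. The chromosome-arm motors Kif4 and Kif22 had log2 ratios of 3.40 and 3.38. The least shifted of the list were Psrc1 at 1.33 and Ckap5, a microtubule polymerase also used outside mitosis, at 1.59.

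All 11 genes of the chromosomal passenger and cytokinesis list above the level were higher too, with a median log2 ratio of 3.02. Prc1, which bundles the midzone of the anaphase spindle, had 245 CPM in mitotic and 16.9 CPM in other cells, a log2 ratio of 3.86 (3.76 to 3.95). The central-spindle motors Kif23 and Kif20a stood at 3.61 and 3.66, and the passenger kinase Aurkb at 3.40, with 66.1 CPM in mitotic and 6.25 CPM in other cells. Anln, an actin-binding protein of the cleavage furrow, was the least shifted at 1.05. It had 59.4 CPM in mitotic and 28.8 CPM in other cells.

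At the kinetochore, 16 of 17 genes were higher, with a median log2 ratio of 2.23. Spc25, a subunit of the NDC80 complex that grips microtubules, had 92.3 CPM in mitotic and 6.46 CPM in other cells, a log2 ratio of 3.84. Nuf2 of the same complex stood at 2.89, as did Sgo2a, a guardian of centromere cohesion. The smallest ratios of the list were those of Cenpm and Cenpw. Cenpm had a log2 ratio of 1.56, and Cenpw, at 0.95, was the 1 gene of the list under the 2-fold mark, with 271 CPM in mitotic and 140 CPM in other cells.

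Of the cyclins, CDK and anaphase regulators, 17 of 19 were higher, with a median of 2.07. Cdk1, the kinase of mitotic entry, had 306 CPM (a log2 ratio of 3.39) in mitotic cells and 29.2 CPM in other cells. The checkpoint protein Bub1b and the cyclin Ccnf stood at 3.36 each. The regulators that act on CDK1 before division were near the other end: Wee1, the kinase that holds CDK1 back, had a log2 ratio of 0.75 and Cdc25b, a phosphatase that releases it, 0.35. In the list on chromosome condensation and chromatin 16 of 21 were higher. Mki67, the proliferation marker that coats mitotic chromosomes, had 288 CPM in mitotic and 28.5 CPM in other cells, and Top2a, which untangles sister chromatids, 518 CPM in mitotic and 69.6 CPM in other cells. Kif5b, a transport motor carried in that list, was lowest at 0.23. Of the 9 tubulins 6 were higher. Tubb4b led at 2.10 and Tubb2b, a tubulin of neurons, was last at 0.12.

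Genes of DNA replication were also higher in the mitotic cells, though by less. Of the 43 S-phase genes above the level, 30 were at least 2-fold higher and none lower, with a median log2 ratio of 1.22. Rrm2, a subunit of ribonucleotide reductase, had 155 CPM in mitotic and 47.5 CPM in other cells. The smallest ratios of the list were those of Ccne1, cyclin E1, at 0.29, and Ung, the uracil-DNA glycosylase, at -0.69, with 23.6 CPM in mitotic and 37.9 CPM in other cells. With the rule and the values read at 8000 UMIs per cell, the S-phase median was 0.79. Replication-dependent histones, whose RNAs mostly lack the poly(A) tail that this chemistry primes on, were higher in 9 of 11. Hist1h1b, a linker histone, had 506 CPM in mitotic and 92.9 CPM in other cells, whereas Hist1h2bc had 58.3 CPM in mitotic and 98.8 CPM in other cells.

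**Figure D2:**
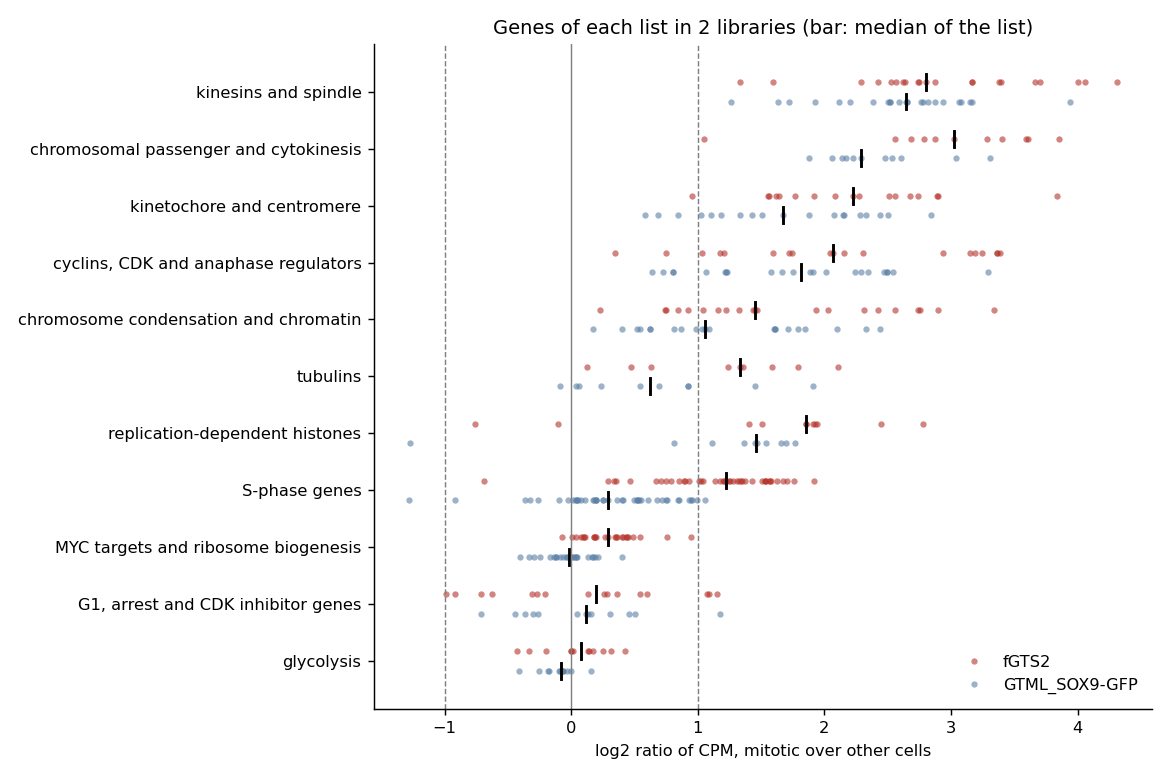
Each point is a gene at 20 CPM or more, placed by its log2 ratio of CPM in mitotic over other cells of fGTS2 or of GTML_SOX9-GFP; black bars are the medians of the lists and dashed lines mark a ratio of 2 either way. The spindle, cytokinesis, kinetochore and CDK lists lie to the right in both libraries, while the S-phase list has a median of 1.22 in fGTS2 and 0.29 in GTML_SOX9-GFP.

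Growth genes differed little between the groups. None of 25 MYC target and ribosome biogenesis genes reached a 2-fold difference; the median log2 ratio was 0.29. Cad, the enzyme that opens pyrimidine synthesis, was highest at 0.94, and Npm1, the abundant nucleolar chaperone, was even, at 4186 CPM in mitotic and 4164 CPM in other cells. None of 12 glycolysis genes reached 2-fold either (median 0.08). In the list of G1, arrest and CDK inhibitor genes, 3 of 16 were higher, Cdk2, E2f1 and Cdkn2d, and the median was 0.20. Its lowest members were Trp53inp1 and Btg2, targets of p53, at -0.99 and -0.92. Ezh2, the methyltransferase of the Polycomb complex PRC2, was the 1 gene of 5 in the progenitor list that was higher, at 1.16. None of the 4 neuronal genes that reached 20 CPM was 2-fold different.

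Mycn and Sox9 were both lower in mitotic cells by less than 2-fold. Mycn had 45.6 CPM (43.7 to 47.5) in mitotic and 50.9 CPM (49.0 to 52.9) in other cells. Its log2 ratio was -0.16 (-0.24 to -0.08). Whether reads of the MYCN transgene were counted in the Mycn row is not given in the sources used here, and Myc has no row in the table. Sox9, the factor that the study's title names, had 57.2 CPM in mitotic and 79.2 CPM in other cells, a log2 ratio of -0.47 (-0.54 to -0.40). Mgmt, the repair enzyme that removes alkyl groups from guanine, was at -0.10 (-0.21 to 0.00). Slc1a2, whose promoter drives the activator in GTML mice, had 4.09 CPM in mitotic and 3.62 CPM in other cells.

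The MAX partners Mxd3 and Mxd4 went opposite ways. Mxd3 had 20.1 CPM in mitotic and 1.92 CPM in other cells, a log2 ratio of 3.39 (3.10 to 3.70). Mxd4 had the lowest ratio of the 5312 genes, with 27.9 CPM in mitotic and 112 CPM in other cells, a log2 ratio of -2.01 (-2.10 to -1.93). Both proteins are known to pair with MAX as repressors. Max itself and Mxi1, another such partner, were even, at -0.04 and -0.02.

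The other genes that were at least 2-fold lower in mitotic cells come from no list used here. Pdcd4, an inhibitor of translation initiation, had 30.2 CPM in mitotic and 72.9 CPM in other cells. Sesn3, a sestrin induced by FoxO factors, had 56.4 CPM in mitotic and 115 CPM in other cells, and Bbc3, the cell death gene PUMA, 19.5 CPM in mitotic and 40.7 CPM in other cells. Neat1, the long RNA of paraspeckles, had 7.85 CPM in mitotic and 25.5 CPM in other cells, and Ypel3 29.4 CPM in mitotic and 65.4 CPM in other cells. Gm17322, Pik3r3, Siah3, Sdc4, Tmem121 and Bcl2l14 were also among the 15 smallest ratios, at -1.39, -1.37, -1.11, -1.11, -1.05 and -1.13. Krt18, a keratin of simple epithelia, had 297 CPM in mitotic and 644 CPM in other cells. Alox5ap, needed for leukotriene synthesis, had 58.3 CPM in mitotic and 126 CPM in other cells, and Blnk, an adaptor first known from B cells, 19.5 CPM in mitotic and 44.3 CPM in other cells. Krt8 and Krt19, named after their values were seen, had log2 ratios of -0.72 and -0.97.

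The levels were also set out by the number of the 8 genes that a cell showed, which is the rule itself read finely. From cells with none to cells with all 8, Mxd4 ran from 130 to 21.7 CPM and Mxd3 from 0.52 to 25.1 CPM. Mxd4 was lower at every step. Krt18 had 827 CPM in cells with none and 276 CPM in cells with all 8, and Alox5ap 173 and 54.7 CPM, neither of them lower at every step between. Other G2/M genes summed to 3486 CPM in cells with none of the 8, to 11306 CPM in cells with 5 and to 18964 CPM in cells with all 8. The S-phase sum was 908 CPM in cells with none, 3996 CPM in cells with 7 and 3483 CPM in cells with 8. Mycn stayed between 44.8 and 54.0 CPM throughout.

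**Figure D3:**
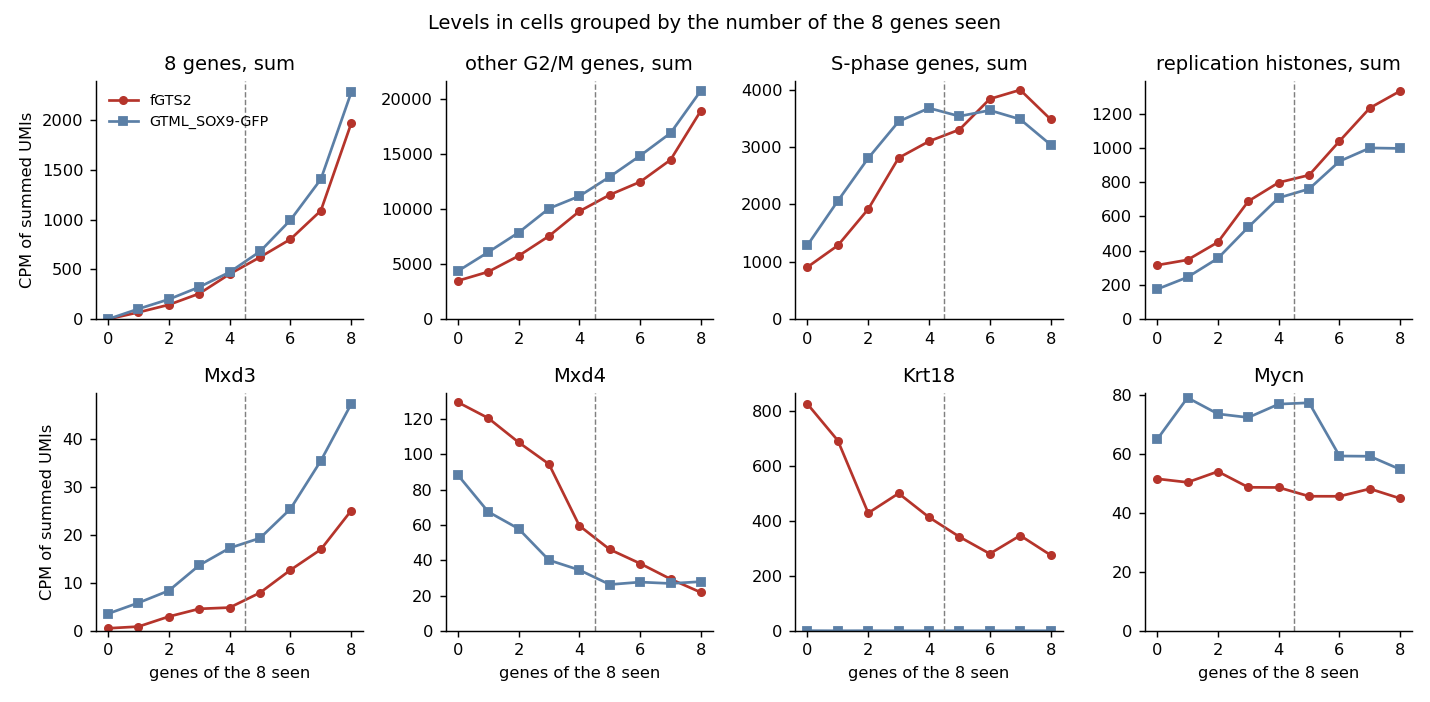
CPM of summed UMIs (vertical axes, linear from 0) in cells grouped by how many of the 8 genes they showed, for fGTS2 and GTML_SOX9-GFP; the dashed line marks the rule. The curves of the 8 genes, the other G2/M genes, histones and Mxd3 run upwards, Mxd4 runs from 130 to 21.7 CPM in fGTS2, Krt18 is near 0 throughout GTML_SOX9-GFP, and Mycn in fGTS2 stays between 44.8 and 54.0 CPM.

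The mitotic cells varied among themselves in how much of their RNA the 8 genes made up, with a median of 13.1 UMIs per 10000 and a range of 1.44 to 50.8. They were put into 4 bins of 431 cells by this share, which spread less in depth than the rule did, with medians of 26727, 25447, 27641 and 29749 UMIs. Ung and Ccne2 were highest in the lowest bin. Ung had 49.8, 23.5, 14.3 and 6.39 CPM from the lowest to the highest bin, and Ccne2, cyclin E2, had 37.2, 20.8, 9.14 and 2.73 CPM. Other cells had 37.9 CPM of Ung and 14.3 CPM of Ccne2. The summed S-phase genes went the same way but stayed above other cells, at 4329, 3800, 3250 and 3027 CPM, against 1622 CPM. The histone sum was nearly level, between 1177 and 1265 CPM, against 437 CPM in other cells.

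Ube2c, Ccnb2 and Arl6ip1 were highest in the highest bin. Ube2c, the ubiquitin-conjugating enzyme of the anaphase-promoting complex, had 187, 387, 737 and 1157 CPM from the lowest to the highest bin, against 70.1 CPM in other cells. Ccnb2, cyclin B2, had 29.7, 58.0, 78.5 and 114 CPM, against 15.8 CPM. Arl6ip1, a protein that shapes the endoplasmic reticulum, had 158 CPM in the lowest and 1101 CPM in the highest bin, against 115 CPM in other cells. Ccne2, Ube2c, Ccnb2 and Arl6ip1 were named after their values were seen. Mxd4 had 42.4 CPM in the lowest and 17.4 CPM in the highest bin, both below the 112 CPM of other cells.

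**Figure D4:**
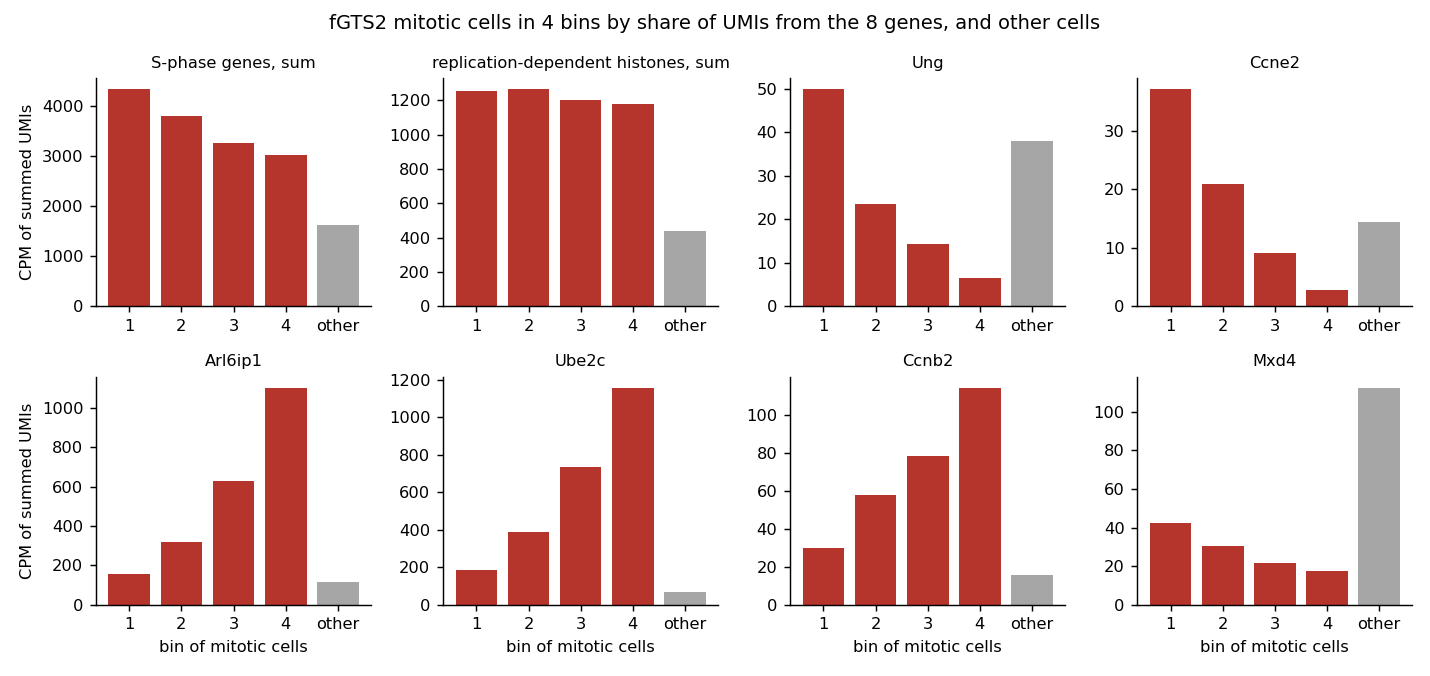
CPM of summed UMIs in 4 bins of the fGTS2 mitotic cells, ordered by the share of their UMIs from the 8 genes (1 lowest, 4 highest; 431 cells each), and in the 2774 other cells (grey). Ung and Ccne2 are highest in bin 1, Arl6ip1, Ube2c and Ccnb2 in bin 4, and the histone sum lies between 1177 and 1265 CPM in all 4 bins.

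The same rule was read in GTML_SOX9-GFP, cells that it was not written for. It was met by 2202 of 4645 cells, or 47.4% (46.0 to 48.9%), against the 38.3% of fGTS2. With every cell thinned to 8000 UMIs the shares were 33.1% in GTML_SOX9-GFP and 24.4% in fGTS2. With 1 library of each, a difference between the sources cannot be told apart from one between libraries. In GTML_SOX9-GFP 155 of 5796 genes, 2.67%, were at least 2-fold higher in mitotic cells and 6 genes, 0.104%, at least 2-fold lower. Of 4855 genes that reached 20 CPM in both libraries, 245 were called higher in fGTS2 and 138 in GTML_SOX9-GFP. The 134 called in both were 54.7% of the fGTS2 genes and 97.1% of the GTML_SOX9-GFP genes. Of the same 4855 genes, 9 were called lower in fGTS2, 5 in GTML_SOX9-GFP and 2 in both. No gene was called in opposite directions.

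The largest gap between the libraries was in replication genes. In GTML_SOX9-GFP 1 of 43 S-phase genes was higher and 1 lower, and the median log2 ratio was 0.29, against 30 higher and 1.22 in fGTS2. The other cells of fGTS2 held less of this RNA, 1622 CPM in sum against 2555 CPM in the other cells of GTML_SOX9-GFP, while mitotic cells held 3601 CPM in fGTS2 and 3266 CPM in GTML_SOX9-GFP. MYC targets had a median of 0.29 in fGTS2 and -0.02 in GTML_SOX9-GFP. Of single genes, Mxd4 had log2 ratios of -2.01 in fGTS2 and -1.12 in GTML_SOX9-GFP, and Mxd3 3.39 in fGTS2 and 2.12 in GTML_SOX9-GFP. Mycn was also slightly lower in the mitotic cells of GTML_SOX9-GFP, at -0.33. Sox9 was not, at 0.10, with 12.5 CPM in mitotic and 11.7 CPM in other cells. Krt18 was close to absent from GTML_SOX9-GFP, at 0.04 CPM in mitotic and 0.12 CPM in other cells.

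Bulk RNA of GTML3 and preGTS1, which took no part in the selection, showed how the same genes behaved under DOX. Values are the deposited log2 CPM, tested with limma in 1 fit over all 12 samples and 15926 genes. Nothing in the labels says that the 3 samples of a group came from separate cultures, so the p-values measure only the spread between these samples. In bulk RNA, fewer dividing cells and less RNA per dividing cell cannot be told apart. DOX changed much of the transcriptome. In GTML3 31.4% of genes were lower and 34.5% higher (4997 and 5487 genes, limma adjusted p under 0.05), and in preGTS1 33.7% lower and 34.5% higher (5374 and 5499).

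All 8 genes of the rule fell in both. Plk1 had 3.70, 3.64 and 3.47 log2 CPM in GTML3 under DOX, against 6.41, 6.26 and 6.28 log2 CPM under DMSO. In preGTS1 it had 2.87, 2.72 and 2.69 log2 CPM under DOX, against 6.02, 5.92 and 5.90 log2 CPM under DMSO. The groups did not overlap, and the log2 change was -2.71 (SE 0.10, limma adjusted p 2.9e-12) in GTML3 and -3.19 (SE 0.10, adjusted p 3.8e-13) in preGTS1. Ccnb1 had 4.72, 5.21 and 5.15 log2 CPM in GTML3 under DOX, against 8.01, 8.13 and 7.99 log2 CPM under DMSO. In preGTS1 Ccnb1 had 4.19, 3.64 and 4.06 log2 CPM under DOX, against 7.91, 7.90 and 7.72 log2 CPM under DMSO. Every DOX sample was below every DMSO sample of the same source. Over the 8 genes the log2 change lay between -3.02 and -2.36 in GTML3. In preGTS1 it lay between -4.33 and -3.11, with Hmmr the most reduced in preGTS1.

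Of the 254 genes higher in mitotic fGTS2 cells, 245 have a row in this table. In GTML3, 232 of the 245 (94.7%) fell under DOX, against 31.4% of all genes, and 4 rose. The median log2 change of the 245 was -2.44, against 0.05 over all genes. In preGTS1, 238 (97.1%) fell, against 33.7% of all genes, and 2 rose. The median of the 245 there was -2.81, against 0.04 over all genes. The 254 were picked in fGTS2 cells, and the earlier finding that division genes fall under DOX was known when they were set beside these samples. Peg3, an imprinted zinc finger gene, was the 1 gene that rose in both, by 1.10 in GTML3 and 0.89 in preGTS1. The other 3 that rose in GTML3 were Arl6ip1, Cep70 and H2afv, with changes of 0.38, 0.32 and 0.38. In preGTS1 the other was Tuba1c, a tubulin, with a change of 0.61. These genes were named after their values were seen. Of the lists, all 46 S-phase genes and all 27 MYC target and ribosome biogenesis genes fell in both, so the fall was not particular to division genes.

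Ccnb2 and Psrc1 stood apart from the rest of their lists in GTML3. Ccnb2 had -0.50, 0.02 and -0.49 log2 CPM under DOX in GTML3, against -0.21, -0.50 and -1.93 log2 CPM under DMSO. In preGTS1 it had 1.35, 0.52 and 0.36 log2 CPM under DOX, against 5.76, 5.65 and 5.59 log2 CPM under DMSO, a log2 change of -4.92 (SE 0.39, limma adjusted p 1.4e-08). In GTML3 the groups overlapped and the level was low with or without DOX. Psrc1 was at the floor of the GTML3 table, -6.16 log2 CPM, in 1 of 3 DOX and 2 of 3 DMSO samples, and fell by 4.94 on the log2 scale in preGTS1. Both genes were named after these values were seen, apart from Psrc1's place in its list. GTML_SOX9-GFP cells, from another GTML source, did hold Ccnb2, with 77.8 CPM in mitotic and 23.1 CPM in other cells. Whether the low bulk values of Ccnb2 and Psrc1 come from counting, annotation or the GTML3 samples themselves was not tested.

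Genes lower in mitotic cells went the other way under DOX. Of the 19, 13 have a row. In GTML3 11 rose, against 34.5% of all genes, and none fell, against 31.4% of all. In preGTS1 all 13 rose, against 34.5% of all genes. Mxd4 had 7.85, 8.00 and 7.99 log2 CPM in GTML3 under DOX, against 5.42, 5.31 and 5.38 log2 CPM under DMSO, a log2 change of 2.57 (SE 0.09, limma adjusted p 1.1e-12). In preGTS1 the Mxd4 change was 1.91 (adjusted p 1.8e-11). Mxd3 fell by 2.43 on the log2 scale in both. Ypel3 rose in both, by 2.91 in GTML3, and Neat1 by 1.66 in GTML3 and 0.86 in preGTS1. Those that did not pass in GTML3 were Upp1 (-0.12, adjusted p 0.85) and Tmem121 (-0.33, adjusted p 0.057). Krt18, Alox5ap and Blnk have no row in this table.

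Whether reads of the MYCN transgene were counted under Mycn in the bulk RNA is not given in the sources used here. Mycn fell in all DOX samples. It had 4.93, 5.07 and 4.80 log2 CPM in GTML3 under DOX, against 8.69, 8.48 and 8.42 log2 CPM under DMSO, and the change was -3.59 in GTML3 and -4.86 in preGTS1. Sox9 rose by 2.24 in GTML3 (limma adjusted p 1.7e-05) and by 2.13 in preGTS1 (adjusted p 2.7e-05). In GTML3 Sox9 had 2.15, 1.63 and 1.54 log2 CPM under DOX, against -0.90, -0.78 and 0.27 log2 CPM under DMSO. The GTML3 change thus rests on a low level under DMSO. In preGTS1 Sox9 had 3.81, 3.71 and 3.87 log2 CPM under DOX, against 2.21, 1.13 and 1.66 log2 CPM under DMSO.

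**Figure D5:**
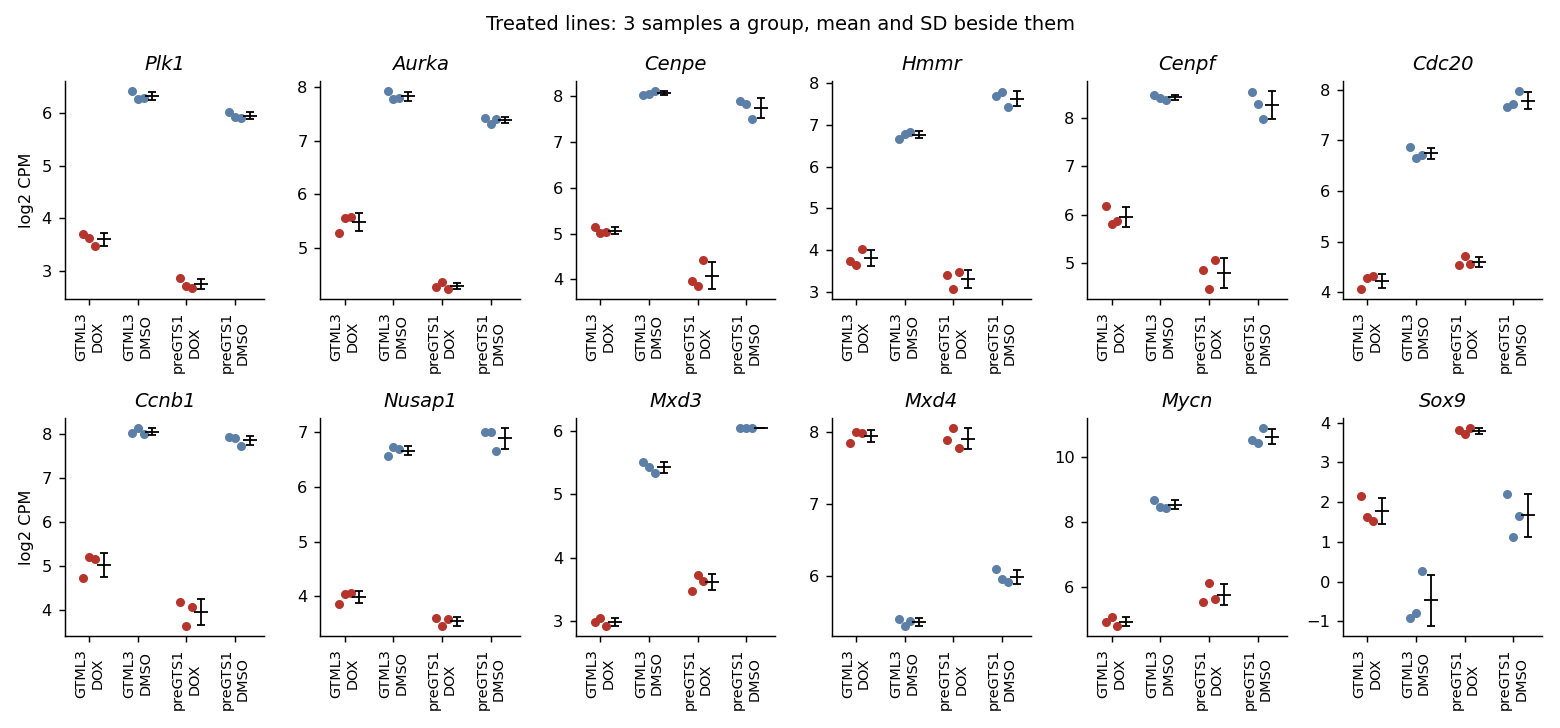
Deposited log2 CPM of the 8 genes of the rule and of Mxd3, Mxd4, Mycn and Sox9 in each of 3 samples per group (points), with the mean and SD beside them; vertical axes differ between genes and do not start at 0. In both GTML3 and preGTS1 every DOX sample lies below every DMSO sample for the 8 genes, Mxd3 and Mycn, and above for Mxd4 and Sox9.

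Open chromatin at the starts of the 8 genes was recorded in all ATAC libraries of GTML_3, PreGTS1, GTS_1 and GTS_2. Each gene had 1 listed region within 1 kb of its start, at 32 to 197 bases. Those of Hmmr, Nusap1 and Aurka also lie near the starts of the neighbouring genes Nudcd2, Oip5 and Cstf1. In the 2 libraries each of GTS_1 and GTS_2, sources that share the GTS name with fGTS2, Ccnb1 had 29.5 and 35.0 CPM in GTS_1 and 58.2 and 71.8 CPM in GTS_2. Nusap1 had 67.3 and 47.5 CPM in GTS_1 and 58.2 and 54.9 CPM in GTS_2. For scale, the median of the 13445 regions within 1 kb of a start (any gene) was 25.8 to 27.8 CPM in these 4 libraries. Under DOX the regions stayed present. In PreGTS1 the region of Plk1 had 15.2 and 16.8 CPM under DOX, against 33.3 and 30.7 CPM under DMSO, and that of Ccnb1 11.4 and 10.4 CPM under DOX, against 20.9 and 18.3 CPM under DMSO. In GTML_3 the region of Plk1 was the other way round, with 28.9 and 31.4 CPM under DOX, against 21.2 and 26.3 CPM under DMSO. Both DOX libraries lay below both DMSO libraries in 5 of 8 regions in GTML_3 and 5 of 8 in PreGTS1, against 21.1% and 30.8% of all such regions. They lay above in 1 of 8 in GTML_3 and none in PreGTS1, against 20.5% and 34.6%. The GTML_3 values rest on 20 to 152 reads per region, and no test was made on duplicates.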

How the data were processed

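Whole UMI counts of each gene in each cell were deposited for both single-cell libraries. The treated RNA table deposited by the authors holds log2 CPM per gene, and the ATAC table deposited by the authors holds CPM per listed region. Cell Ranger 3.3.0 and Seurat 3.0 stand in the submitters' processing notes, as do Subread 1.5.2, MACS2, STAR 2.4.0, edgeR, limma and Bowtie2 2.2. The same notes list the builds mm10 and mm9, and give no step for any of these. Groups came from the sample titles; the free-text descriptions of the treated RNA samples name another column and were not followed. CPM values, ratios and exact intervals (95%) were computed in Python 3.11.15 with scipy 1.17.1, and doublets were called with scanpy 1.11.5. A gene was called at a 2-fold ratio among genes at 20 CPM or more in either group. limma 3.58.1 (trend, robust) was fitted to the 12 treated RNA samples with Benjamini-Hochberg adjustment over all genes; its filter on low values removed none. The deposited values rose in whole steps (100% whole within 0.1 read), which gave 10.9 to 24.7 M reads per RNA library and 0.827 to 7.77 M reads per ATAC library. Reads without molecular tags are not independent molecules. The ratio and limma procedures were tested on simulated data.

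Cells and lists were chosen with earlier results of these data known. Named genes are the 8 of the rule, the study's genes, the 15 largest and 15 smallest ratios, and in each list the 3 largest and 2 smallest; others are said to be named after their values were seen. No build is stated for the ATAC regions, so only distances are given. Other bulk samples of the series, among them ATAC-seq samples named GFP and NoneGFP, were not used here. A gene that this rule names is not reported here.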

Additional observations from a re-analysis of the deposited data

Results flagged for a closer look

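Several genes responded to DOX by unequal amounts in preGTS1 and GTML3, by the interaction term of the limma fit over all genes. Each value is the log2 change in preGTS1 minus that in GTML3, with 3 samples in each group and its adjusted p. All 8 genes of the rule were among them. The share of all genes that passed this term was not counted, so this is not shown to be particular to the 8. The difference was -1.37 for Hmmr (adjusted p 2.6e-05), -1.01 for Cenpf (0.0030), -0.86 for Ccnb1 (0.0030) and -0.75 for Aurka (0.00024). It was -0.67 for Nusap1 (0.0018), -0.67 for Cenpe (0.0091), -0.66 for Cdc20 (0.0022) and -0.48 for Plk1 (0.013). All 8 thus fell further in preGTS1.

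Mycn differed by -1.27 (adjusted p 0.00032). Mxd4, which rose in both, differed by -0.67 (0.00043), while for Mxd3 the difference did not pass (adjusted p 0.99). The largest differences, named after their values were seen, were those of Ccnb2 at -5.47 (1.7e-06) and Psrc1 at -5.50 (0.0019), both low in GTML3 with and without DOX, Ccnb2 at 0.02 log2 CPM or less and Psrc1 at the floor of the table in 3 of 6 samples. Whether these low values come from counting, annotation or the GTML3 samples was not tested, and the differences rest on them.

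Among genes higher in mitotic cells that did not fall everywhere, the difference was -0.94 for Arl6ip1 (2.3e-05), -0.63 for H2afv (0.0018), -0.48 for Cep70 (0.047) and 0.53 for Tuba1c (0.030). Among genes with lower levels in mitotic cells, it was -0.71 for Ypel3 (0.0073), -0.80 for Neat1 (0.0015), -0.69 for Sesn3 (0.0037), -1.05 for Bbc3 (0.0011), -0.89 for Btg2 (2.3e-05) and 0.71 for Tmem121 (0.012).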

How the results depend on the processing

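The share of mitotic cells was 44.0% with at least 4 of the 8 genes, 32.7% with at least 6, and 24.4% with the rule read at 8000 UMIs per cell. At these 3 settings the median log2 ratio of G2/M genes outside the rule was 2.67, 2.38 and 2.10, and that of S-phase genes 1.36, 1.09 and 0.79. With the mean of each cell's own CPM the medians were 2.31 and 1.26. Counts of genes past 2-fold rested on the filter: 385 higher and 75 lower at 5 CPM, and 1321 higher and 1407 lower with no filter, where a few UMIs make a ratio. The Sox9 log2 ratio was -0.38 at 8000 UMIs per cell. Leaving out the cells called doublets or the 1% deepest cells moved none of these results past its counting interval, nor a count by 1.5 times.

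For DOX against DMSO, leaving out 1 sample at a time gave 4652 to 4879 lower genes in GTML3 and 5070 to 5237 in preGTS1, and 230 to 233 and 237 to 238 of the genes of mitotic cells. The median centring, log2(CPM + 1), no filter (which kept the same genes) and an edgeR test on the recovered reads, chosen after seeing the data, stayed within 1.5 times. With the replicate number as a block, 231 and 238 genes of mitotic cells and 4853 and 5257 genes in all were lower. Same-numbered DOX and DMSO samples had correlations of deviations between -0.15 and 0.07, so no strong shared deviation was seen. This cannot show whether samples of the same number were set up as pairs. Replicate 1 of GTML3 under DOX differed most from its group (chi-square per degree of freedom 59.0 and 83.4, against 4.61 to 35.9 among the other pairs).

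Depth limits the single-cell values: the deeper cells met the rule more often, and a gene not seen in a cell is not shown to be absent there. With 1 library there is no replicate error.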
